A study of Homo sapiens with 2 samples.

Results

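ACSL4, TFRC and FTH1 stand for the lipid and iron sides of ferroptosis, a form of cell death driven by iron-dependent oxidation of membrane lipids. Their rows were taken by name from deposited transcript tables of 95D, a cell line from human lung cancer. The 3 names are among 9253 that carried a value, and they account for 13 of the 18663 transcript rows with one. The 3 were picked with values from these same libraries in view, so what follows describes them and tests nothing.

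The labels give 2 samples of wild-type 95D cells. The glucose-deprived sample had grown for 24 h in complete medium and then spent 48 h in DMEM lacking glucose. The glutamine-deprived sample was handled alike, except that its DMEM lacked glutamine. Both deprivation media held 10% dialysed serum. There is 1 library per condition, so no difference has a replicate check, and culture in complete medium is not analysed here. The series' title and design speak of RNA pulled down with ALKBH5, an eraser of the m6A mark on RNA, and of input RNA. The labels call both samples total RNA and do not say which, if either, was a pull-down. The values below are therefore those of 2 nutrient conditions and are not read as binding to ALKBH5.

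Ferroptosis begins when phospholipids that carry polyunsaturated fatty acids are oxidised faster than the cell can repair them. ACSL4 is an acyl-CoA synthetase that activates such fatty acids so that they can enter phospholipids. Free iron helps the peroxides to spread: TFRC, the transferrin receptor, brings iron into the cell, and FTH1, the heavy chain of ferritin, oxidises it for safe storage. Cells low in iron stabilise the TFRC messenger and block translation of the FTH1 messenger through iron regulatory proteins, so protein levels can part from RNA levels. By RefSeq's annotation of GRCh38.p14, ACSL4 lies at chrX:109641335-109733257, TFRC at chr3:196049284-196082090 and FTH1 at chr11:61964285-61967634, and all 3 are protein-coding. The deposited rows hold a name and a value without transcript identifier, position or sequence. The header of the name column speaks of long non-coding RNA, so whether a row is a coding messenger or another transcript of the locus cannot be told apart.

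The libraries were of very different content. Reads recovered from the values came to 42827 without glucose and 1442572 without glutamine, over the listed rows only. Of the valued names 393, or 4.25%, were above 0 without glucose, against 9211, or 99.5%, without glutamine. By rows 2.54% were above 0 without glucose, and 4 of the 13 rows of ACSL4, TFRC and FTH1 were. The names above 0 held a median of 81 reads in the sparse library without glucose and of 26 in the glutamine-deprived library. Of 8 reference genes that cells use throughout, 5 had a value, and 1 of these, PPIA, was above 0 without glucose. It stood at 377 (501 in the glutamine-deprived library), while ACTB and GAPDH were among those listed at 0 without glucose. A member at 0 is for that reason only said to be listed at 0. Of 10 markers of lung epithelial or mesenchymal cells 6 had a value and KRT8 and FN1 were above 0 in both libraries, whereas EPCAM, CDH1, CDH2 and NKX2-1 had none. None of 10 markers of blood, endothelial or fibroblast cells had a value, and 6 of them were listed. Of 29234 listed names 9253 had a value, so this does not show that such cells were absent.

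ACSL4 was seen in the glucose-deprived library and not in the other. Its value was 397, from 314 reads, in the glucose-deprived library (354 to 443, 95% exact Poisson interval of the reads on the scale of the values). Without glutamine it was listed at 0. The whole value came from 1 of the 3 rows under the name, the other 2 having no value in either library. Among the 393 names above 0 in the glucose-deprived library ACSL4 ranked 12th by level, 3.88 times the median name. It held 0.733% of the reads there (95% Wilson interval 0.657 to 0.819%). Here and below an interval reflects the counting of reads alone: copies made by PCR were not marked, and no further library shows the spread between cultures.

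ACSL4 belonged to a small class. There were 42 names above 0 without glucose and listed at 0 without glutamine, and 39 of them rested on a lone valued row, as ACSL4 did. Their median value was 80.3 and ACSL4, picked with such values in view, had the highest, the next standing at 186. The nearest symbols to ACSL4 in level across both libraries were TPGS2 at 144, INTS6L at 137 and LINC01828 at 137, all listed at 0 in the glutamine-deprived library. They lay 1.46 to 1.53 log2 units from it, so no symbol closely matched its level. Rows carried a value only where at least 1 library was above 0. A name listed at 0 without glutamine therefore has valued rows only where the glucose-deprived library was above 0. With 2 ACSL4 rows blank, the listed 0 does not show that the gene was silent without glutamine. On the log2(value + 1) scale the ratio of the glutamine-deprived to the glucose-deprived library was -8.64, a size that the added 1 sets. On this scale 1.42% of all names, or 131, were higher without glucose by 2-fold or more. Only the 393 names above 0 without glucose could be, so these 131 are to be read beside the 393.

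The 2 other acyl-CoA synthetases of the family that had a value were above 0 without glutamine, beside 99.5% of all names. ACSL3, which activates mainly monounsaturated and saturated fatty acids, was at 102 without glucose and 216 without glutamine, over 3 valued rows. ACSL1 was listed at 0 and at 11.1. ACSL5 and ACSL6 were in the table without a value. ACSL4 was thus the 1 measured member of the family that was listed at 0 without glutamine. Being above 0 there was the usual case and is not particular to ACSL1 and ACSL3.

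TFRC was above 0 in both libraries, but different transcript rows led it. Of 18 rows under the name 10 had a value. All 10 were above 0 in the glutamine-deprived library and 2 of them in the glucose-deprived library. In the text and the plot of transcript rows they are lettered from the highest to the lowest value without glutamine. Rows a and b led the glutamine-deprived library at 427 and 345 and were listed at 0 in the glucose-deprived one. Rows c, d and e followed at 87.0, 70.4 and 56.9, again against a listed 0. Rows h, i and j were low, at 5.52, 4.73 and 1.56, with 7, 6 and 2 reads, also against a listed 0.

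Rows f and g ran the opposite way. Row f was at 174 in the glucose-deprived library and 43.5 in the glutamine-deprived library, 4.01 times higher without glucose as deposited. Row g was at 87.2 and 12.6, or 6.90 times higher. Of the 375 rows above 0 in both libraries, 40% were at least 2-fold higher without glucose on the log2(value + 1) scale. Another 30.1% were at least 2-fold higher without glutamine, so the direction of rows f and g is not particular to TFRC. In the glucose-deprived library these rows made up all TFRC reads, 66.7% (95% Wilson interval 60.0 to 72.7%) for row f and 33.3% (27.3 to 40.0%) for row g. In the glutamine-deprived library they made up 4.13% (3.18 to 5.33%) and 1.20% (0.740 to 1.94%). Row a alone held 40.5% (37.9 to 43.2%) there, with an upper bound of 1.82% in the other library. A share within a name does not move with the scaling of a library, so the row make-up of TFRC differed between these libraries by far more than counting error under each scaling used. How reads were assigned among the rows of a name is not stated, and error from that step was not tested.

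**Figure D1:**
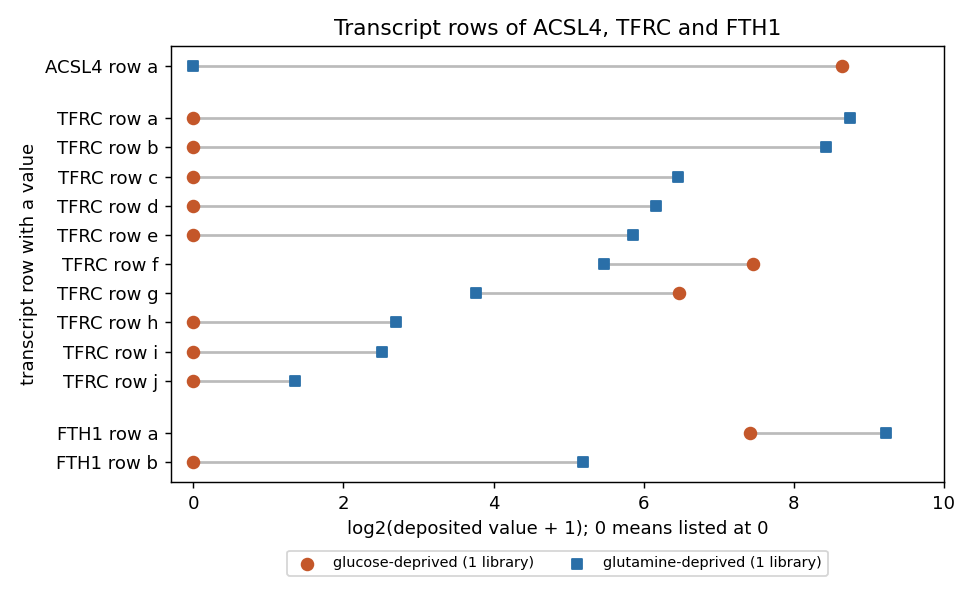
Value of each transcript row of ACSL4, TFRC and FTH1 as log2(deposited value + 1), 1 circle for the glucose-deprived library and 1 square for the glutamine-deprived library, with no error bars since each is 1 library. TFRC rows f and g are higher without glucose, the other 8 TFRC rows are listed at 0 there, and FTH1 is led by row a in both libraries.

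Summed over rows, TFRC stood at 262 (227 to 300) without glucose and at 1054 (999 to 1113) without glutamine. As deposited the sum was 4.03 times higher without glutamine (3.48 to 4.69), although both rows seen in each library were higher without glucose. Other names showed such a conflict too. Of the 148 names above 0 in both libraries and at least 2-fold higher without glutamine, 28 or 18.9% had a row in both libraries that was at least 2-fold higher without glucose. Of these 148 names, 19 had several rows above 0 in both libraries, and TFRC was the 1 name for which all such rows were at least 2-fold higher without glucose. This last count was shaped after the TFRC rows had been seen and marks nothing particular to TFRC.

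A change of leading row was itself common. Of 276 names above 0 in both libraries with several valued rows, 107 or 38.8% had the same highest row in each, and of the 34 with at least 10 valued rows 8 or 23.5% did. In the glutamine-deprived library the rows that were above 0 without glucose held 5.33% of TFRC reads. The median over the 276 names was 31.6%, and 70 of them were at or below TFRC. Over the 34 names with at least 10 valued rows the median was 11.1%, and 13 were at or below it. Read against those names, the row make-up of TFRC was not out of the ordinary.

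FTH1 kept its leading row. It had 2 rows, each with a value. Row a was at 169 in the glucose-deprived library (134 reads, 142 to 201) and at 597 in the glutamine-deprived library (755 reads, 555 to 641). Row b was listed at 0 and at 35.6, the latter from 45 reads. Row a held all FTH1 reads without glucose, with a lower bound of 97.2%, and 94.4% (92.6 to 95.8%) without glutamine. Of 67 names with 2 valued rows and above 0 in both libraries, 47.8% kept their leading row. In these the rows seen without glucose held a median of 62.1% of the reads without glutamine, and 12 of the 67 were at or above FTH1. FTH1 is copied into many processed pseudogenes in the human genome, and its reads can be shared with them. No name made of FTH1, P and a number was in the table, so how such reads were assigned was not tested.

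As a sum, FTH1 was at 169 without glucose and 633 (590 to 678) without glutamine, 3.74 times higher without glutamine as deposited (3.11 to 4.52). It ranked 59th of 393 names without glucose and 114th of 9211 without glutamine. TFRC ranked 33rd and 41st. Both were thus among the higher names of each library. Of the 114 names at or above the level of FTH1 without glutamine, 47 or 41.2% were above 0 without glucose, so the presence of TFRC and FTH1 in the sparse library is to be read beside that share rather than the 4.25% of all names.

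The direction for TFRC and FTH1 turned with the scaling. As deposited, their log2(value + 1) ratios of the glutamine-deprived to the glucose-deprived library were 2.01 and 1.90. Among the 351 names above 0 in both libraries 42.2% were at least 2-fold higher without glutamine, the median log2 ratio was 0.61, and 75.2% and 74.1% of the names had a lower ratio than TFRC and FTH1. Relative to that median their ratios were 1.40 and 1.29. With each library rescaled to 1000000 the ratios were -2.39 and -2.49, and 86.9% of the 351 names were then at least 2-fold higher without glucose. Rescaling moved the median of these names by -4.38. As a share of reads TFRC took 0.483% (0.422 to 0.554%) without glucose and 0.0924% (0.0876 to 0.0975%) without glutamine, and FTH1 took 0.313% (0.264 to 0.370%) and 0.0555% (0.0517 to 0.0594%). These shares were 5.23 and 5.64 times higher without glucose. The total itself depended on a few rows, since XLOC_220679, an unnamed locus, was at 442573 without glutamine and 7036 without glucose. No direction is given for either name for this reason, and it is the deposited scale, whose basis is not stated, that sets the fold.

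**Figure D2:**
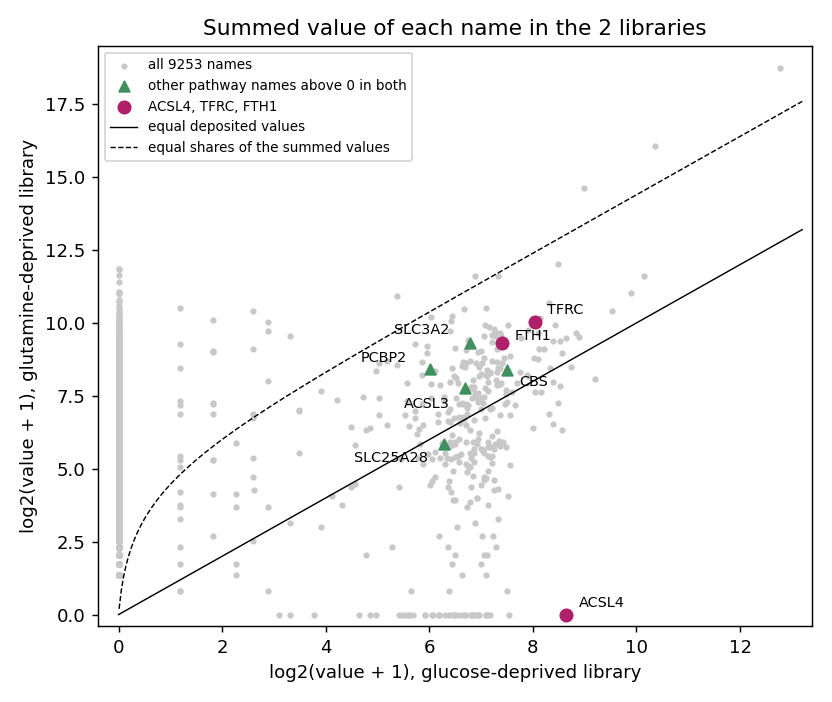
Summed value of every name as log2(value + 1), the glucose-deprived library on the horizontal and the glutamine-deprived library on the vertical axis, with 1 point per name. TFRC and FTH1 lie above the solid line of equal deposited values and below the dashed line of equal shares of the summed values, and ACSL4 lies at 0 on the vertical axis and 8.64 on the horizontal.

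The balance of TFRC to FTH1 is free of scaling, because both come from the same library. It was 1.54 TFRC reads per FTH1 read without glucose (1.24 to 1.93, exact conditional binomial interval) and 1.67 without glutamine (1.53 to 1.82). The intervals of the summed values overlap, though different TFRC rows led the sums. With the highest row of each name in place of the sum the ratio ran the other way, 1.03 (0.81 to 1.32) without glucose and 0.72 (0.64 to 0.80) without glutamine, and these intervals narrowly miss each other. Whether the balance differed between the libraries thus depends on how TFRC rows are counted. Row lengths are not known, so these ratios compare the libraries and do not say which transcript was more abundant. ACSL4 behaved differently from both: it gave 2.34 reads per FTH1 read without glucose (1.91 to 2.89) and was listed at 0 without glutamine.

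The symbols nearest to TFRC in level were ADAR at 282 and 1141, SNHG16 at 240 and 864 and HSP90B1 at 272 and 806, 0.16 to 0.39 log2 units away over 2 libraries. Those nearest to FTH1 were GLA at 147 and 644, ATP13A3 at 167 and 742 and MSN at 157 and 548, 0.21 to 0.23 units away. The first value of each pair is without glucose.

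Around the members, lists of 111 pathway genes were drawn up, of which 75 were in the table and 51 had a value. Without ACSL4, TFRC and FTH1, 5 of the 48 valued names, or 10.4%, were above 0 without glucose, beside 4.25% of all names. The median value without glutamine was 56.1 for the 48 names and 20.5 for all names, and whether that level accounts for the share was not tested. Their median log2 ratio was 5.12 as deposited, beside 4.32 over all names, and 46 of the 48 were at least 2-fold higher without glutamine, beside 97.4% of all names. Most of these ratios stand against a listed 0 and carry little more than the level without glutamine. After rescaling, 96% of all names were still at least 2-fold higher without glutamine and 3.75% without glucose.

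On the lipid side, 6 of the 7 valued drivers of lipid peroxidation were listed at 0 without glucose, ACSL4 being the exception. Over all names 4.25% were above 0 there, so a listed 0 is not particular to the lipid genes. Without glutamine SAT1, a polyamine acetyltransferase, stood at 160, AGPS, an enzyme of ether lipid synthesis, at 105, FADS2, a fatty acid desaturase, at 92.5 and POR, cytochrome P450 reductase, at 48.2. LPCAT3, which places the acyl chains that ACSL4 activates into phospholipids, was at 3.94. The list drawn up for defence against lipid peroxides had 3 valued names, each listed at 0 without glucose. Without glutamine GPX4, the selenoenzyme that reduces lipid peroxides, was at 1.56 from 2 reads and COQ6 of coenzyme Q synthesis was at 80.6. DHCR7, at 93.3, is on that list but uses up 7-dehydrocholesterol, a sterol that itself traps lipid radicals, so it is no defence in the sense of the other names.

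Among 7 valued genes of cystine uptake and glutathione, SLC3A2 and CBS were above 0 in both libraries. SLC3A2, the heavy chain of the cystine and glutamate exchanger, was at 109 without glucose and 630 without glutamine. CBS, which starts the conversion of homocysteine to cysteine, was at 180 and 333. GSS, glutathione synthetase, stood at 242, TXNRD1 at 175, GSR at 76.7 and GCLC at 19.8 without glutamine. These 4 were listed at 0 without glucose, where 4.25% of all names were above 0.

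Iron uptake was represented by 7 valued names, of which TFRC was the 1 above 0 without glucose. Over all names 4.25% were above 0 there, so a listed 0 is not particular to the iron genes. Without glutamine SLC11A2, which carries iron out of endosomes, was at 213, SLC39A14 at 139, SLC39A8 at 43.5 and STEAP2, a metalloreductase, at 20.5. In the storage list PCBP2, a chaperone that carries iron to ferritin, was above 0 beside FTH1, at 63.3 without glucose and 342 without glutamine. HERC2, a ubiquitin ligase, was listed at 0 and at 36.3. FTL, the ferritin light chain, and NCOA4, which sends ferritin to lysosomes, were not among the names analysed here. None of the 3 valued names of iron export and haem turnover was above 0 without glucose. FLVCR1, a haem exporter, was at 52.2, BLVRB at 26.1 and BLVRA at 3.13 without glutamine.

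The regulators were all listed at 0 without glucose, where 4.25% of all names were above 0, so their absence says nothing particular about them. Of the iron regulatory list 4 had a value: CIAO1, of cytosolic iron-sulfur assembly, was at 453 without glutamine, CIAO3 at 55.3, and the iron regulatory proteins ACO1 and IREB2 at 15.8 and 11.8. All 9 valued regulators of ferroptosis and the antioxidant response were likewise listed at 0, with MDM2 at 248, NFE2L2, the NRF2 factor, at 106 and ATF3 at 57.7 without glutamine. Of the 6 mitochondrial iron names SLC25A28, an iron importer of the inner membrane, was at 77.1 without glucose and 56.9 without glutamine, from different rows. Its paralogue SLC25A37 was listed at 0 and at 334, ISCU, the scaffold of iron-sulfur clusters, at 0 and 141, NFS1 at 0 and 65.6.

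**Figure D3:**
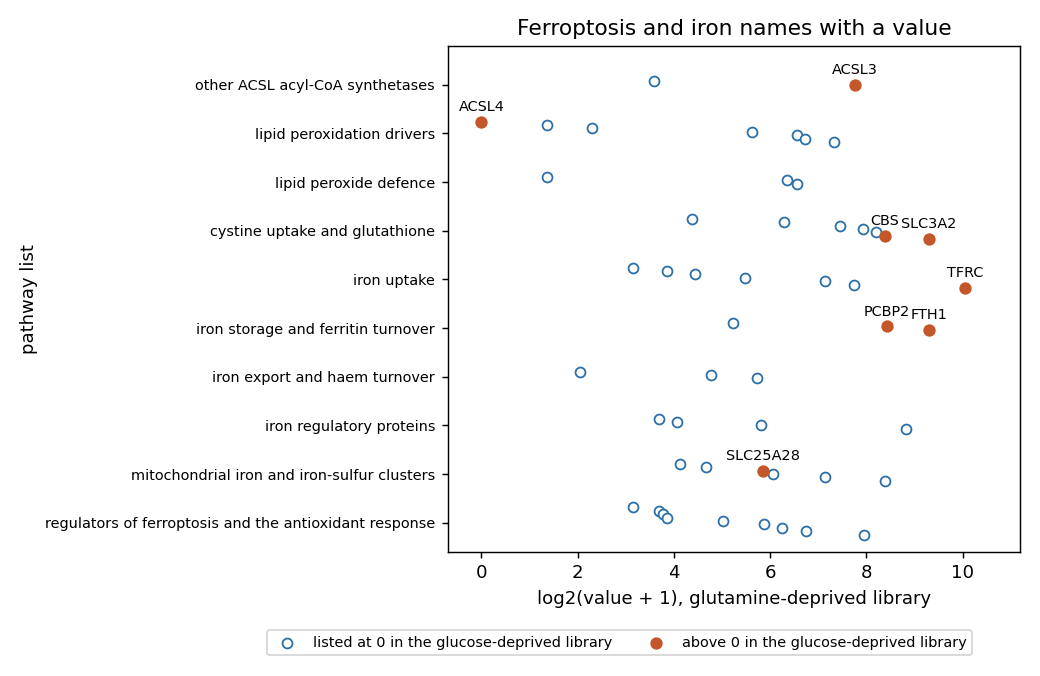
Value without glutamine, as log2(value + 1), of each name with a value in 10 ferroptosis and iron lists (ACSL4 is shown once, among the drivers), filled where the name was also above 0 in the glucose-deprived library. Filled points are 8 of the 51 valued names. Apart from ACSL4 at 0, SLC25A28, and PCBP2 at the median of its list, they lie in the upper part of their list.

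Set against FTH1 within each library, a measure that no scaling alters, the 5 further names above 0 in both did not move alike. SLC3A2 gave 0.64 reads per FTH1 read without glucose (0.48 to 0.85) and 1.00 without glutamine (0.90 to 1.10). PCBP2 gave 0.37 (0.26 to 0.52) and 0.54 (0.48 to 0.61), intervals that overlap. CBS gave 1.06 (0.83 to 1.35) and 0.53 (0.47 to 0.59), and ACSL3 gave 0.60 (0.45 to 0.80) and 0.34 (0.30 to 0.39). SLC25A28 gave 0.46 (0.33 to 0.62) and 0.09 (0.070 to 0.115). The intervals of SLC3A2, CBS, ACSL3 and SLC25A28 did not overlap between the libraries, the first being higher without glutamine and the others without glucose. Of the 351 names above 0 in both libraries 74.1% had a lower log2 ratio than FTH1, so a name higher without glucose relative to FTH1 was the usual case and is not particular to these genes. The highest row differed between the libraries for ACSL3, CBS, SLC25A28 and SLC3A2 and was the same for PCBP2.

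**Figure D4:**
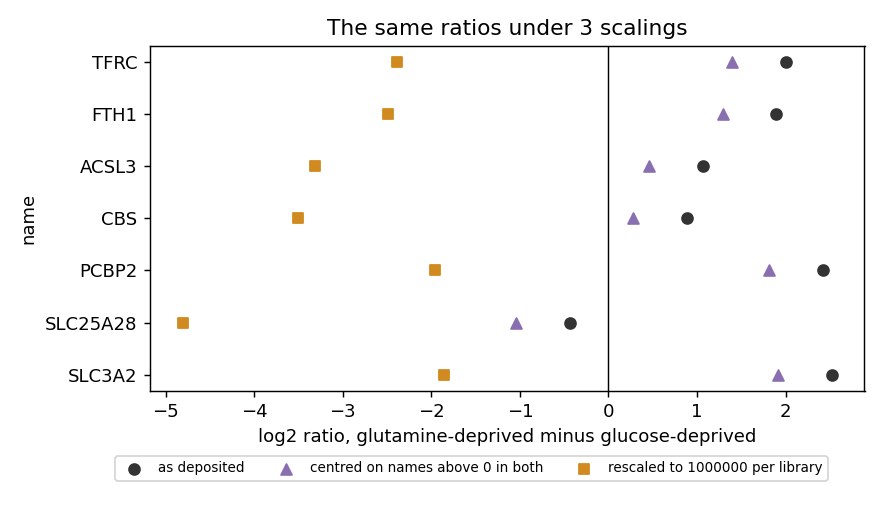
Log2(value + 1) ratio of the glutamine-deprived to the glucose-deprived library for TFRC, FTH1 and 5 other pathway names above 0 in both, as deposited, centred on the median of 351 names and rescaled to 1000000. All except SLC25A28 are above 0 as deposited and after centring, and all are below 0 after rescaling, TFRC at -2.39 and FTH1 at -2.49.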

How the data were processed

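Per the labels, total RNA of 95D cells was depleted of ribosomal RNA and sequenced in paired-end reads. The submitters' processing notes name HISAT2 2.0.5, StringTie and build hg38, with no counting tool, annotation, filter or scaling given in the sources used here. The deposited values behave as read counts multiplied by 1 factor per library: low values climbed in steps of 1.26 and 0.791, whose product is 1. Whole reads were recovered from step and offset for 100% of 472 and 18536 values up to 1000 reads, within 0.1 of a read. Of 91835 rows, 73172 had no value and were left out, and values under 1e-09 were set to 0. The series table held the same values in all rows. Rows were summed by name. Ratios were taken on the log2 scale after adding a pseudocount of 1, so small values differ by less there than in truth. No test was run, as each condition had 1 library. Python 3.11.15, pandas 2.3.3 and scipy 1.17.1 were used. Read recovery and log2 ratios, but not the intervals or shares, were tested on data simulated in the same step form. The members and gene lists were chosen with earlier results of these data known. Of each list, names above 0 in the glucose-deprived library and up to 4 of the highest without glutamine are named, with GCLC, GSR, TXNRD1, LPCAT3 and STEAP2 added for their role after their values were seen. The nearest symbols were taken by Euclidean distance of log2(value + 1). A few names that this rule gives are not reported here.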

Additional observations from a re-analysis of the deposited data

How the results depend on the processing

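With ACSL4 listed at 0 in the glutamine-deprived library no setting could turn its direction. The size of its log2 ratio, -8.64 as reported, moved to -12.8 after rescaling to 1000000, to -13.0 with the most abundant name also left out, to -9.24 after centring on names above 0 in both libraries and to -12.0 with a pseudocount of 0.1. The ratios of TFRC and FTH1 turned to -2.39 and -2.49 after rescaling and to -1.88 and -1.99 without the most abundant name, and were 1.40 and 1.29 after centring. With the highest row in place of the sum TFRC was at 1.29, and the TFRC to FTH1 ratio of values went from 1.54 to 1.03 without glucose and from 1.67 to 0.72 without glutamine, since TFRC is split over more rows. Names at least 2-fold higher without glucose numbered 131, or 85 at 4-fold and 347 after rescaling. The other counts stayed within 1.5 times, and 8 pathway names were above 0 without glucose at each minimum tried. No paired analysis was possible because each condition has 1 library. In the glucose-deprived library, which had fewer recovered reads over the listed rows, each member rests on 134 to 314 reads. Why so few names were above 0 there was not tested.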
